A study of Mus musculus with 15 samples.

Results

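The genes described here are 33 genes of mitosis and the spindle, taken as a fixed list of G2/M, kinetochore and spindle genes from the 51763 genes of the count table. All 33 were found once each by symbol and all 33 passed the filter on low counts, as did 16919 genes of the table. They were followed over 15 libraries of mouse bone marrow-derived macrophages (BMDMs), with 3 libraries for each of 5 conditions. Wild-type C57BL/6NTac female mice gave the marrow, which was cultured with macrophage colony-stimulating factor (M-CSF) for 10 days by the labels and for a slightly shorter time by the study's methods. The cells were then re-seeded in low-serum medium, whose listed contents do not name M-CSF, and stimulated for 24 h. The conditions were PBS as the unstimulated control, fully reduced HMGB1 (frHMGB1) at 5 µg/mL, disulfide HMGB1 (dsHMGB1) at 5 µg/mL, LPS at 1 µg/mL, and LPS with IFNγ at 20 ng/mL (LPS/IFNγ). HMGB1 is a nuclear protein that acts as a danger signal outside the cell, LPS is a bacterial cell wall component sensed by TLR4, and IFNγ is a lymphocyte cytokine. The LPS dose of LPS/IFNγ is 1 µg/mL by the treatment field and 100 ng/mL by the protocol text of the labels, so a dose difference between LPS/IFNγ and LPS cannot be told apart from IFNγ. The frHMGB1 was made in-house and the dsHMGB1 came from another laboratory, so source and redox form cannot be told apart either. Macrophages of several mice were pooled before seeding, and the 3 libraries of a condition are technical replicates, so the p-values measure only the spread between these libraries and not between animals.

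Entry into mitosis is driven by CDK1 bound to A- and B-type cyclins, after which polo-like and Aurora kinases build the spindle, the spindle checkpoint holds the anaphase-promoting complex until every kinetochore is attached, and a set of motors and scaffolds divides the cytoplasm. Most of these genes are transcribed late in the cycle and held silent in resting cells by the DREAM complex. They are switched on by B-MYB and FOXM1 through CHR elements near their starts, where CCAAT boxes are also found. Cultured macrophages divide in response to M-CSF, and inflammatory stimuli are known to slow or stop this division.

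The totals per library ran from 40934540 to 80925478 counts. The macrophage identity of the cells was checked with 8 markers (Adgre1, Csf1r, Cd68, Itgam, Mertk, Lyz2, Fcgr1 and Cd14), all of which had counts, and their summed level was 21895.4 to 26183 CPM (counts scaled to library size) in PBS, 27009.8 to 27281 in frHMGB1, 19553.5 to 21038 in dsHMGB1, 16137 to 16844 in LPS and 13519.8 to 13865 in LPS/IFNγ. This sum was mostly Lyz2 (mean 18539.1 CPM in PBS and 9307.5 CPM in LPS/IFNγ). It was thus lower in the conditions in which most of the 33 genes were lower. By fold change of normalized counts over PBS, 6 of the 8 markers were higher in each of dsHMGB1, LPS and LPS/IFNγ. The median log2 fold changes of the 8 were 0.52, 0.60 and 0.55. The part of the sum in the results was not tested. The defining lymphocyte genes Cd3d, Cd3e and Nkg7, the neutrophil genes Ly6g, S100a9 and Mpo and the erythroid genes Hba-a1 and Hbb-bs were at 0 counts. All 5 fibroblast markers had counts, with a sum of 118 to 282 CPM in PBS, 245 to 247 CPM in frHMGB1, 189 to 239 CPM in dsHMGB1, 209.7 to 217 CPM in LPS and 220.1 to 223 CPM in LPS/IFNγ. The 3 progenitor markers (Kit, Cd34 and Flt3) summed to 4.37 to 9.65 CPM in PBS, 5.69 to 6.90 in frHMGB1, 3.26 to 4.24 in dsHMGB1, 3.99 to 4.69 in LPS and 2.87 to 3.30 in LPS/IFNγ, and their part in the results was not tested. One control library, PBS replicate 3, stood apart from the others. Its Pearson's r of log2 CPM with the other PBS libraries was 0.933 and 0.938, against at least 0.987 between replicates of the same condition elsewhere. Of the 33 genes, 10 differed by more than 1 on the log2 scale between PBS replicate 3 and the mean of the other PBS libraries, from -2.81 for Kif20a to 1.58 for Birc5. For the comparisons with PBS, calls that changed, and called values that moved by over 1.5 times, when it was left out are given beside the genes. For the other comparisons, numbers of calls without it are given, and not every gene is named.

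Promoter sequence is shown for 6 of the genes so that the letters of late cell cycle elements, found in some of the stretches and not in others, can be read beside the results. The set was chosen after the expression values were seen, to place Mki67 and Nusap1, which were higher after LPS/IFNγ, beside Ccnb1, Cdk1, Cdc20 and Kif23, which were lower. Each stretch comes from the RefSeq promoter table on GRCm38.p6, runs 5′ to 3′ towards the start on the gene's own strand, and stops before the first base of the GENCODE gene. Capitals mark the letters of a CHR element, which reads TTTGAA, those of the CCAAT box, which reads ATTGG on the other strand, and those of an E2F site (TTGGCGC or TTCGCGC or TTGCCGC or TTCCCGC, read on either strand). The positions are chr7:135716380-135716629 (minus strand) for Mki67, chr2:119618048-119618297 (plus strand) for Nusap1, chr13:100786571-100786736 (minus strand) for Ccnb1, chr10:69352939-69353162 (minus strand) for Cdk1, chr4:118437353-118437593 (minus strand) for Cdc20 and chr9:61946800-61947049 (minus strand) for Kif23.
Mki67: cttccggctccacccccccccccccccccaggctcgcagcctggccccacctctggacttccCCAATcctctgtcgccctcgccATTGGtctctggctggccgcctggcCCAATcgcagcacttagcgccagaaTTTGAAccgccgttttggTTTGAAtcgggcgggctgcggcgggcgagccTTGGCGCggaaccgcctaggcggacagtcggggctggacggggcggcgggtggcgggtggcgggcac
Nusap1: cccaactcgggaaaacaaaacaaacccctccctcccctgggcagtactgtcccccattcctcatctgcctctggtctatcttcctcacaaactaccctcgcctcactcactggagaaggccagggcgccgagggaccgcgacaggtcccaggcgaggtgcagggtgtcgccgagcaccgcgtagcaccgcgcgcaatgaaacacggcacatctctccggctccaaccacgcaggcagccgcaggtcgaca
Ccnb1: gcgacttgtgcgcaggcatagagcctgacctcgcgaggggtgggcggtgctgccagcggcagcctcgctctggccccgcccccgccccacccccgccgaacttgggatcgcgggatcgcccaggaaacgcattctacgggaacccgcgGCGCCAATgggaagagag
Cdk1: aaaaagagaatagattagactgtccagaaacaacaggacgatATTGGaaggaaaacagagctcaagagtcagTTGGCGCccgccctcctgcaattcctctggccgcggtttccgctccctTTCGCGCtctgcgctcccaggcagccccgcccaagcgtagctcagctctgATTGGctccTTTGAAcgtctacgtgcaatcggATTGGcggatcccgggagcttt
Cdc20: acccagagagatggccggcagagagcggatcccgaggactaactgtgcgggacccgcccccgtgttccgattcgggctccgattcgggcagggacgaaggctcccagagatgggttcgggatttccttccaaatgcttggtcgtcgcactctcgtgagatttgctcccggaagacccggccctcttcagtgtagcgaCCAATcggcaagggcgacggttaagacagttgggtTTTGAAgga
Kif23: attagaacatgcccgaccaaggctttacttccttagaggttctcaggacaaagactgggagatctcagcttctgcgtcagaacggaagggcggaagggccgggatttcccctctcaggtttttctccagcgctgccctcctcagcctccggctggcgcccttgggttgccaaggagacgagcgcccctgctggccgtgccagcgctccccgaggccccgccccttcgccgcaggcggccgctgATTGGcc

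The RefSeq table held a promoter for 27 of the 33 genes, in 28 windows of 300 bases (250 before the start and 50 after it). Aurkb, Ccna2, Foxm1, Kif20a, Smc4 and Tpx2 had none there. A CHR element on either strand was found in 22 of the 28 windows (78.6%), against 17.9% of all 32851 windows of the table. The CCAAT box was found in 22 windows (78.6%, against 37.4%), the E2F letters in 7 (25.0%, against 9.57%) and the CHR variant TTCGAA in 3 (10.7%, against 1.56%). The E2F letters on the reverse strand can share bases with a CCAAT box, as in Ccnb1. Both the CHR and the CCAAT letters were present in 18 genes. The 30 CHR matches began between base -179 and base 40 from the start. Ect2 was counted in both of its overlapping windows, so its letters enter these numbers more than once. By gene, the CHR letters were found in 21, the CCAAT letters in 21 and the E2F letters in 6. Mki67, whose count rose, held the CHR, CCAAT and E2F letters, as did Cdk1, whose count fell, while Nusap1 held none of these letters. The CHR letters of Kif23 lie just after its start and outside the printed stretch. A further CHR match of Cdk1 and a further CCAAT box each of Ccnb1 and Cdc20 also lie outside their printed stretches. A match describes letters in a window and not a site in use.

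**Figure D1:**
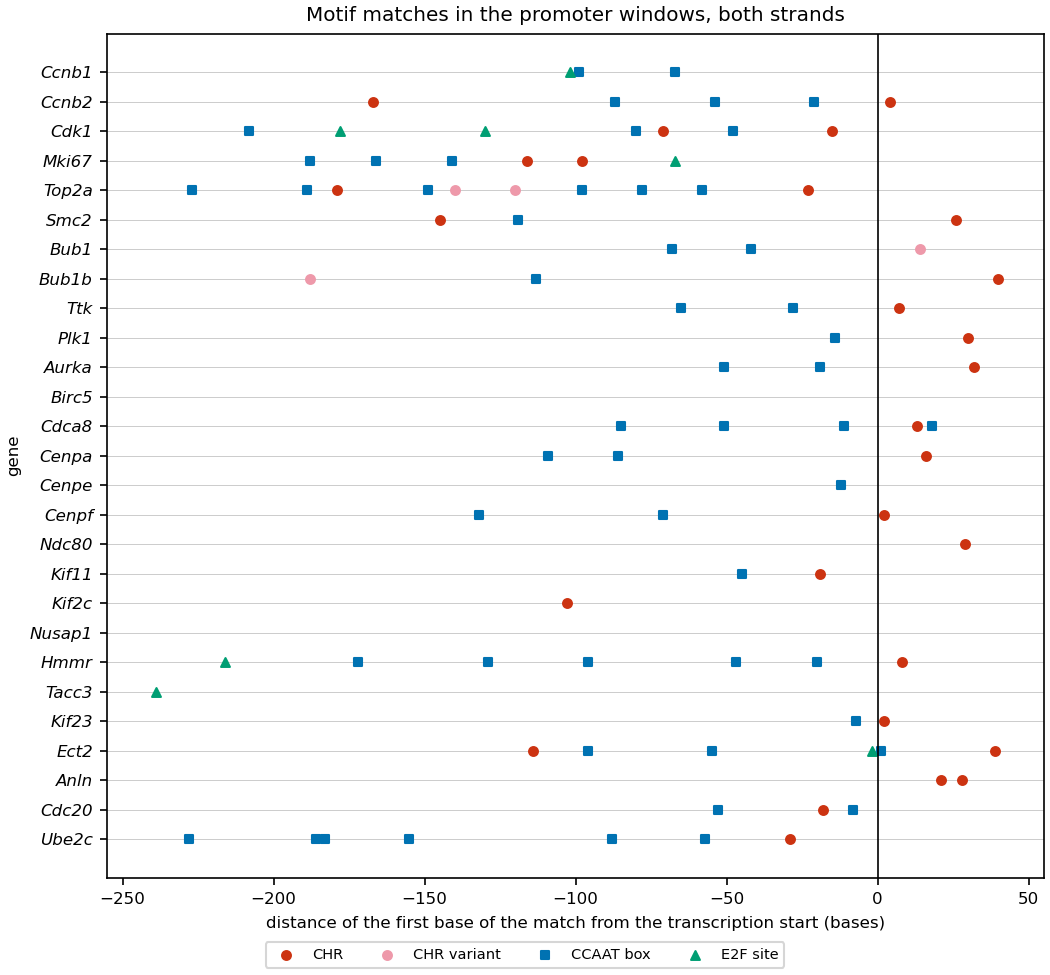
Position of motif matches in the RefSeq promoter windows of 27 mitosis and spindle genes (y axis), with the distance of the first base of each match from the transcription start in bases (x axis, the start at 0) and 1 window per gene. Matches to CHR, its variant, the CCAAT box and the E2F letters on both strands are drawn as symbols, and the rows of Birc5 and Nusap1 are empty.

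Against PBS, most of the 33 genes were lower with dsHMGB1, LPS and LPS/IFNγ, and none was called with frHMGB1. By edgeR's quasi-likelihood test with Benjamini-Hochberg adjustment over all tested genes, 0 of the 33 were called higher and 0 lower with frHMGB1. Of all tested genes, 1.31% were called higher and 5.69% lower there, and 861 of the 963 called lower were processed pseudogenes. The 33 are protein-coding, and of the 13025 protein-coding genes tested, 188 were called higher and 55 lower with frHMGB1. An unadjusted p under 0.05 was found for 2 of the 33. With dsHMGB1, 20 fell and 2 rose (24.2% and 23.3% of all tested genes). With LPS, 23 fell and 3 rose (36.2% and 26.7%). With LPS/IFNγ, 24 fell and 4 rose (31.2% and 29% of all tested genes). The median log2 fold change of the 33 was 0.04 with frHMGB1, -0.90 with dsHMGB1, -1.11 with LPS and -1.41 with LPS/IFNγ, beside -0.01, -0.10, -0.21 and -0.12 over all tested genes. These 4 comparisons share the PBS libraries. In bulk RNA, fewer dividing cells and less RNA of a gene per cell cannot be told apart. Without PBS replicate 3, 27 fell with dsHMGB1 (19 of them among the 20), 25 with LPS (22 shared) and 26 with LPS/IFNγ (24 shared), and the genes that rose were the same in number and identity. Ccnb2 lost its call with dsHMGB1 then (adjusted p = 0.0755).

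**Figure D2:**
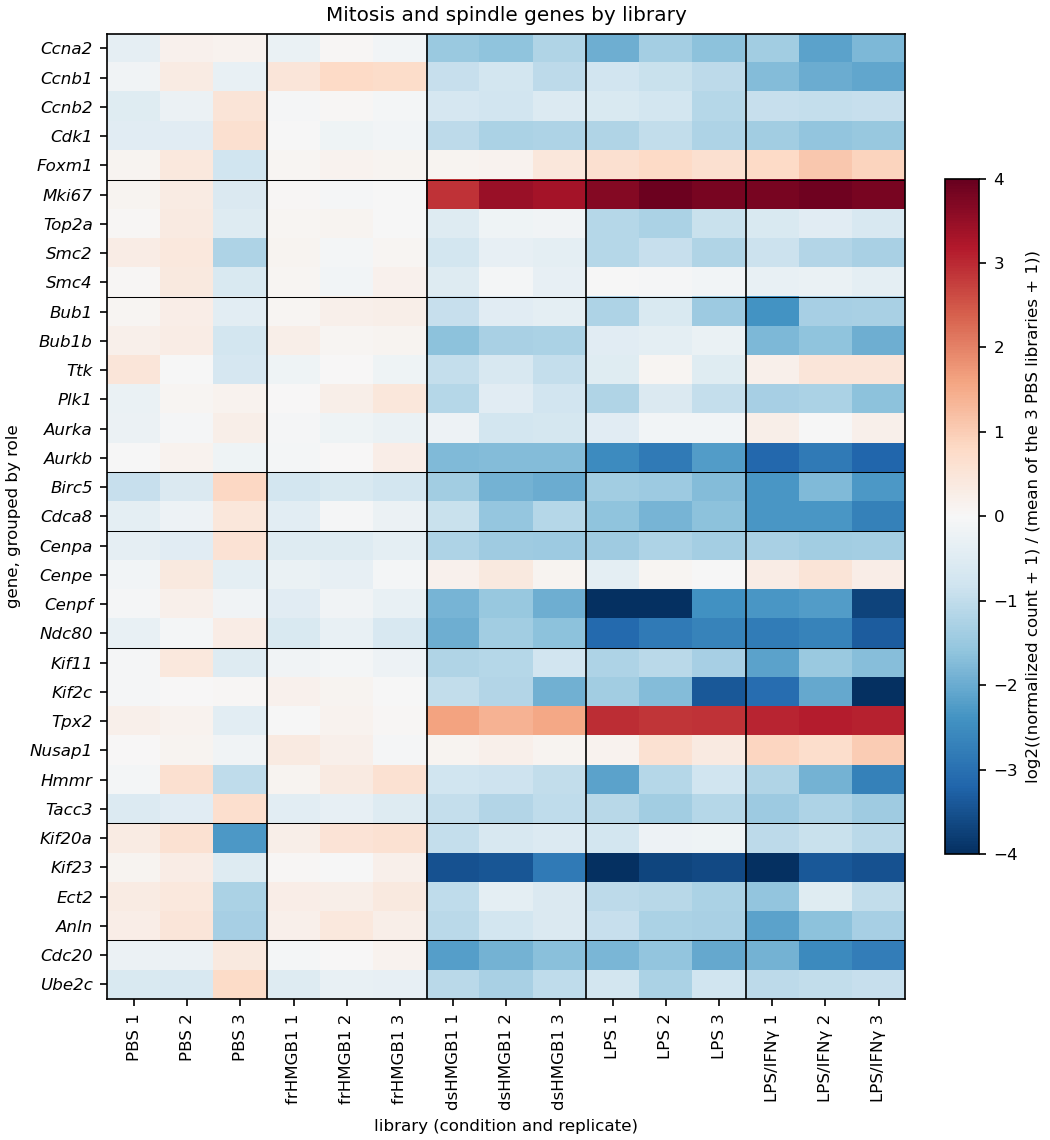
Heatmap of the 33 genes (rows, grouped by role) in the 15 libraries (columns). The colour is log2 of the normalized count plus 1 over the mean of the 3 PBS libraries plus 1, and the dsHMGB1, LPS and LPS/IFNγ libraries are blue for most genes and red for Mki67 and Tpx2.

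**Figure D3:**
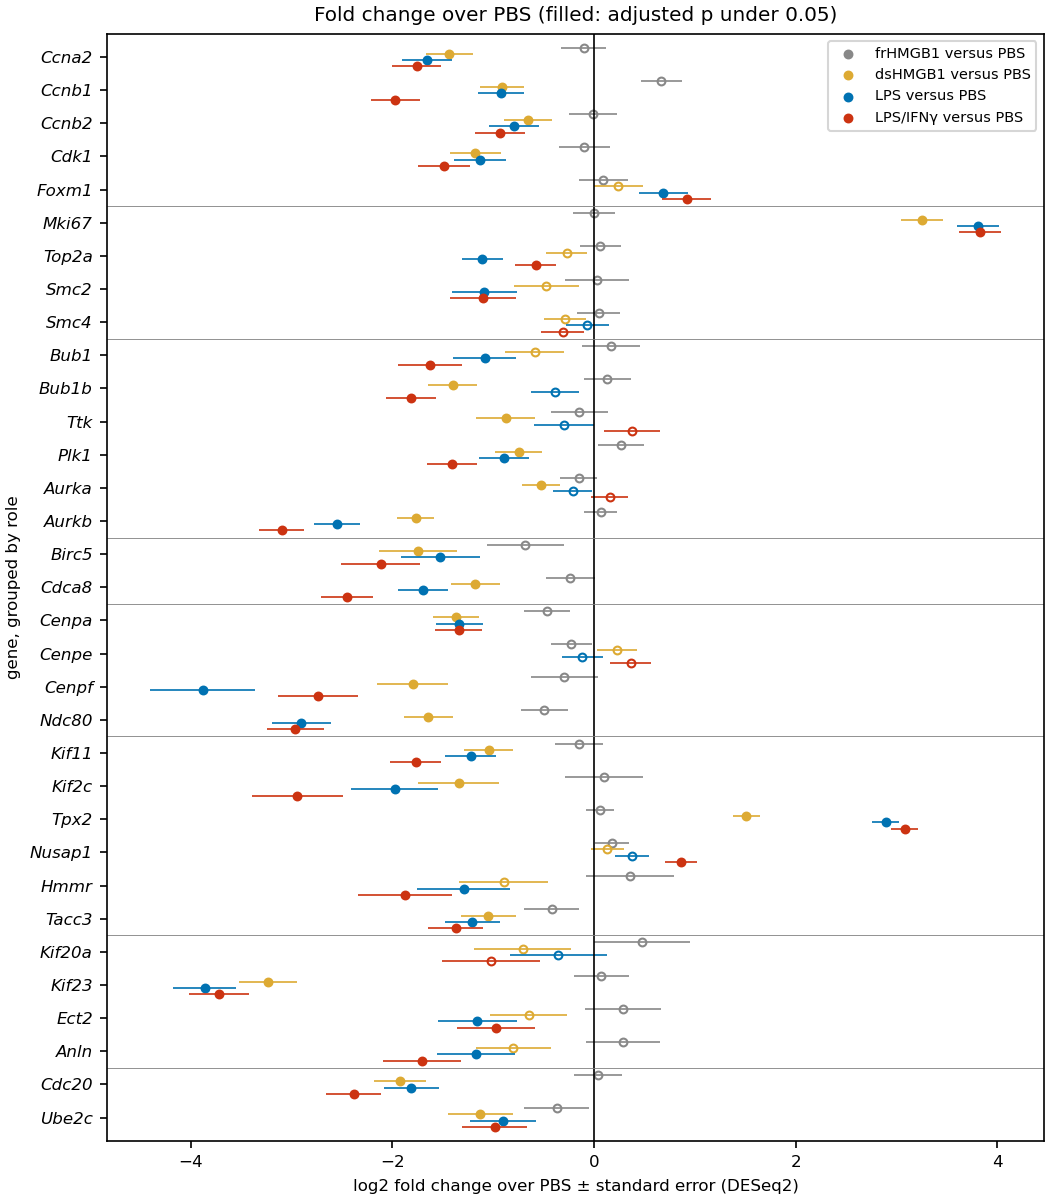
Log2 fold change over PBS with its standard error (x axis) for each gene (y axis) in 4 conditions, filled where the adjusted p was under 0.05. Kif23, Cenpf, Aurkb and Ndc80 lie farthest to the left, and Mki67 and Tpx2 farthest to the right.

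The cyclins and their kinase fell in all 3 inflammatory conditions. Cyclin B1, the partner with which CDK1 starts mitosis, had normalized counts of 105, 146 and 93.7 with PBS, 160.4, 198 and 193 with frHMGB1, 59.6, 69.0 and 55.5 with dsHMGB1, 67.2, 61.3 and 54.4 with LPS and 33.9, 28.4 and 26.5 with LPS/IFNγ. Every LPS/IFNγ library of Ccnb1 lay below every dsHMGB1 and LPS library, and every frHMGB1 library lay above every PBS library. The log2 fold change over PBS was -0.91 ± 0.21 (SE) with dsHMGB1, -0.92 ± 0.23 with LPS and -1.97 ± 0.25 with LPS/IFNγ (edgeR adjusted p = 0.00263, 0.00135 and 3.77e-06), and 0.67 ± 0.20 with frHMGB1 (adjusted p = 0.0664). Cdk1 itself had 517, 516 and 1101 with PBS, 697, 628 and 665 with frHMGB1, 344, 294 and 302 with dsHMGB1, 310.2, 359 and 303 with LPS and 270.4, 239.9 and 247 with LPS/IFNγ. PBS replicate 3 was far above its PBS partners for Cdk1, and all libraries of the 3 inflammatory conditions were below all PBS and frHMGB1 libraries. The change over PBS was -1.18, -1.13 and -1.49 in the same order (adjusted p = 0.000645, 0.000433 and 5.48e-05). Without PBS replicate 3 the values with dsHMGB1 and LPS were -0.73 (adjusted p = 5.14e-06) and -0.68, and the value with frHMGB1 turned from -0.10 to 0.36 and was called (adjusted p = 0.0232).

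Cyclin A2, which acts in S phase and at the entry into mitosis, had 154, 225 and 219 with PBS, 165, 204 and 186 with frHMGB1, 70.3, 64.6 and 85.7 with dsHMGB1, 50.4, 76.2 and 63.2 with LPS and 75.3, 44.2 and 56.7 with LPS/IFNγ. The inflammatory libraries of Ccna2 did not overlap with PBS or frHMGB1 and overlapped with each other. Its log2 fold change was -1.44, -1.66 and -1.76 (adjusted p = 0.000157, 2.84e-05 and 1.67e-05). Of its exon bases, 12.5% lie opposite an exon of Exosc9, and the strand setting of the counting is not given in the sources used here. Ccnb2, the second B-type cyclin, fell by the test as well, with values of -0.65, -0.79 and -0.93. These became -0.31, -0.45 and -0.59 without PBS replicate 3, and the call with dsHMGB1 was also lost without dsHMGB1 replicate 1 or 2 (adjusted p = 0.0588 and 0.076).

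FOXM1, the transcription factor that switches on late cell cycle genes, was called higher with LPS and LPS/IFNγ. Foxm1 had 213, 269 and 115 with PBS, 208, 218 and 214 with frHMGB1, 214, 221 and 275 with dsHMGB1, 309, 349.7 and 307 with LPS and 345, 424 and 366 with LPS/IFNγ. All LPS and LPS/IFNγ libraries lay above all PBS libraries, and the dsHMGB1 libraries overlapped with PBS. It rose with LPS (0.68 ± 0.24, adjusted p = 0.0459) and LPS/IFNγ (0.92 ± 0.24, adjusted p = 0.00733), while the value with dsHMGB1 was 0.24 (adjusted p = 0.484). The test of dsHMGB1 against LPS/IFNγ gave -0.68 for Foxm1 (adjusted p = 0.0551), and was called without PBS replicate 3 (-0.67, adjusted p = 0.000333). The call with LPS was lost (adjusted p of 0.0515 to 0.0939) on leaving out any of 9 single libraries, namely PBS replicate 1, dsHMGB1 replicate 2 or 3, or any frHMGB1 or LPS library. Without PBS replicate 3 the value with LPS was 0.41 (adjusted p = 0.0332). Per exon length, the mean level of Foxm1 was 2.42 ± 1.39 TPM with PBS, 2.30 ± 0.181 TPM with LPS and 2.97 ± 0.346 TPM with LPS/IFNγ, so that the direction with LPS differed between the scales.

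Mki67 showed the largest rise of the 33. It encodes Ki-67, the protein that coats mitotic chromosomes and the usual marker of dividing cells. Its normalized counts were 934, 1099.8 and 585 with PBS, 911, 845 and 871 with frHMGB1, 6504, 9627 and 8834 with dsHMGB1, 11146, 13312 and 12223 with LPS and 12143, 13087 and 12058 with LPS/IFNγ. The lowest inflammatory library of Mki67 was far above the highest PBS or frHMGB1 library. The log2 fold change was 3.25 ± 0.21 with dsHMGB1, 3.81 ± 0.21 with LPS and 3.83 ± 0.21 with LPS/IFNγ (adjusted p = 4.99e-08, 8.58e-09 and 7.11e-09) and 0.00 with frHMGB1. Between dsHMGB1 and LPS it was -0.56 (adjusted p = 0.0932), although all dsHMGB1 libraries lay below all LPS libraries. That difference was called once PBS replicate 3 was left out (-0.55, adjusted p = 0.000489). Per exon length, the level of Mki67 went from 5.99 ± 3.04 TPM (counts scaled for exon length and library size, SD, n = 3) in PBS to 45.2 ± 10.8 with dsHMGB1, 49.9 ± 4.38 with LPS and 55.9 ± 3.14 with LPS/IFNγ, while Cdk1 went from 8.61 ± 1.13 to 2.31 ± 0.149 TPM in LPS/IFNγ. No exon of Mki67 overlaps an exon of another annotated gene. Its share of all counts of the 33 genes was 4.69% to 8.37% in PBS and 47.6% to 59.0% in the inflammatory libraries, so that the summed level of the 33 genes, 234 to 310.3 CPM in PBS and 233 to 311 CPM in the inflammatory libraries, did not show the fall of the single genes. The scales differed here: summed as normalized counts, the level was 11553 to 13139 in PBS and 13671 to 22694.5 in the inflammatory libraries, and so was higher in the latter. Leaving out Mki67 and Tpx2, a pair chosen after their values were seen, the sum was 217 to 273 CPM in PBS and 229 to 242 CPM in frHMGB1. It was 99.6 to 108 CPM in dsHMGB1, 78.5 to 82.1 CPM in LPS and 72.6 to 79.3 CPM in LPS/IFNγ. The sum without this pair was taken in CPM and was not computed from normalized counts, so the size of its fall holds for CPM only.

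The other chromosome structure genes fell or were not called. Top2a, the topoisomerase that untangles sister chromatids, had 746, 930.2 and 504 with PBS, 773, 786 and 722 with frHMGB1, 505, 639 and 666 with dsHMGB1, 326, 300.4 and 388 with LPS and 471, 525 and 469 with LPS/IFNγ. The LPS libraries of Top2a were the lowest and lay apart from all others. It fell with LPS (-1.11, adjusted p = 0.000245) and LPS/IFNγ (-0.58, adjusted p = 0.0188), and the value with dsHMGB1 was -0.27 (adjusted p = 0.254). The condensin subunit genes Smc2 and Smc4 had values of -0.47 and -0.29 with dsHMGB1, neither of them called. Smc2 fell with LPS (-1.09) and LPS/IFNγ (-1.10), and Smc4 was called in none of the comparisons with PBS. Top2a, Smc2 and Smc4 were called lower with dsHMGB1 once PBS replicate 3 was left out (-0.48, -0.83 and -0.52). Smc4 was then also called lower with LPS (-0.31, adjusted p = 0.0114) and LPS/IFNγ (-0.55, adjusted p = 0.000138). The call of Top2a with LPS/IFNγ was lost without PBS replicate 2 (-0.36) and without LPS/IFNγ replicate 1 or 3, at an adjusted p of 0.0521 to 0.101.

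Among the checkpoint and mitotic kinases, Aurkb fell most. Aurora B corrects faulty attachments of chromosomes to the spindle, and its gene had 205, 229 and 184 with PBS, 196, 206 and 248 with frHMGB1, 59.6, 60.9 and 61.4 with dsHMGB1, 34.9, 28.4 and 42.6 with LPS and 22.3, 28.4 and 21.9 with LPS/IFNγ. The dsHMGB1 libraries lay between PBS and LPS without overlap on either side. Relative to PBS its values were -1.77 ± 0.18, -2.55 ± 0.22 and -3.10 ± 0.23 (adjusted p = 3.54e-06, 9.34e-08 and 1.63e-08). Its partners in the chromosomal passenger complex fell with it. Survivin (Birc5) had 155, 197 and 524 with PBS, 176, 191 and 176 with frHMGB1, 109, 77.8 and 72.3 with dsHMGB1, 109.9, 106 and 86.8 with LPS and 57.3, 85.2 and 58.5 with LPS/IFNγ, with PBS replicate 3 far above the others. Its log2 fold change with dsHMGB1 was -1.75 (adjusted p = 0.00139), and -1.03 without PBS replicate 3 (adjusted p = 0.000264). With LPS and LPS/IFNγ it was -1.52 and -2.12, and -0.81 and -1.40 without that library. Borealin (Cdca8) had 344, 388 and 615 with PBS, 332, 430.2 and 378 with frHMGB1, 240.2, 153 and 201 with dsHMGB1, 147, 124 and 143 with LPS and 89.1, 89.4 and 67.6 with LPS/IFNγ. The PBS, dsHMGB1, LPS and LPS/IFNγ libraries of Cdca8 descended in that order without overlap. Its log2 fold change was -1.18, -1.70 and -2.45.

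Aurora A, the kinase of the spindle poles, was called with dsHMGB1 but not with LPS or LPS/IFNγ. Aurka had 164, 183 and 226 with PBS, 184, 169.6 and 157 with frHMGB1, 165, 114 and 117 with dsHMGB1, 139.6, 178 and 175 with LPS and 223, 189 and 220.3 with LPS/IFNγ. The dsHMGB1 libraries included the lowest values, and the LPS/IFNγ libraries overlapped with PBS. It fell with dsHMGB1 (-0.53, adjusted p = 0.023), and its values with LPS and LPS/IFNγ were -0.21 and 0.15 (adjusted p = 0.194 and 0.548). The call with dsHMGB1 was lost without dsHMGB1 replicate 2 or 3 (adjusted p = 0.0966 and 0.0903), with no filter on low counts and with the pair of conditions fitted alone (0.111 and 0.139). Tested directly, dsHMGB1 against LPS gave -0.32 (adjusted p = 0.33) and against LPS/IFNγ -0.68 (adjusted p = 0.0104). Plk1, the polo-like kinase of mitotic entry and spindle assembly, had 98.3, 125 and 130.0 with PBS, 119.7, 140.0 and 163 with frHMGB1, 53.4, 86.6 and 68.9 with dsHMGB1, 50.4, 79.2 and 60.3 with LPS and 46.7, 48.4 and 37.5 with LPS/IFNγ. All inflammatory libraries of Plk1 were below all PBS libraries. The change over PBS was -0.75, -0.90 and -1.41 (adjusted p = 0.0148, 0.00314 and 0.00014). The call of Plk1 with dsHMGB1 was lost without dsHMGB1 replicate 1 (-0.59, adjusted p = 0.068).

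BUBR1 (Bub1b), a subunit of the inhibitor of the anaphase-promoting complex, had 334, 359 and 175 with PBS, 341, 306 and 309.6 with frHMGB1, 92.5, 117 and 120.2 with dsHMGB1, 209, 219.7 and 239.7 with LPS and 81.7, 93.7 and 73.1 with LPS/IFNγ. The LPS libraries of Bub1b lay between the frHMGB1 and the dsHMGB1 libraries without overlap. It fell with dsHMGB1 (-1.40, adjusted p = 0.000298) and LPS/IFNγ (-1.81, adjusted p = 2.2e-05), and the value with LPS was -0.38 (adjusted p = 0.111). It was called with LPS as well once PBS replicate 3 was left out (-0.64, adjusted p = 0.000255). MPS1 (Ttk), the kinase that starts the checkpoint signal, had 78.2, 54.9 and 35.1 with PBS, 49.2, 56.2 and 49.6 with frHMGB1, 28.5, 35.9 and 28.6 with dsHMGB1, 40.1, 59.8 and 39.7 with LPS and 64.7, 78.9 and 78.6 with LPS/IFNγ. It fell with dsHMGB1 (-0.88, adjusted p = 0.0232), and its value with LPS/IFNγ was 0.38 (adjusted p = 0.3). The call of Ttk was lost without PBS replicate 1 (-0.57, adjusted p = 0.126) and without dsHMGB1 replicate 1 or 3. Bub1, the kinase that recruits checkpoint proteins to kinetochores, fell with LPS (-1.09) and LPS/IFNγ (-1.63), with -0.59 with dsHMGB1 (adjusted p = 0.129). Leaving out PBS replicate 3, Bub1 was called with dsHMGB1 (-0.76, adjusted p = 0.0211).

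Of the 4 centromere and kinetochore genes, 3 fell in each inflammatory condition and Cenpe was called in none. Cenpf, a kinetochore and nuclear matrix protein, had 80.2, 95.2 and 75.0 with PBS, 60.9, 75.6 and 68.0 with frHMGB1, 22.2, 28.6 and 21.0 with dsHMGB1, 2.59, 0 and 14.7 with LPS and 15.9, 16.8 and 5.48 with LPS/IFNγ. One LPS library had no count of it, and the remaining values of the inflammatory conditions rest on few reads. Its log2 fold change was -1.80 ± 0.35, -3.88 ± 0.52 and -2.74 ± 0.40 (adjusted p = 0.0104, 0.000128 and 0.000724). Ndc80, the outer kinetochore subunit that holds microtubules, fell (-1.64, -2.90 and -2.96 on the log2 scale), as did Cenpa, the centromeric histone (-1.37, -1.34 and -1.34). CENP-E, the kinetochore motor, had 241, 337 and 199 with PBS, 216, 204 and 247 with frHMGB1, 294, 341 and 279 with dsHMGB1, 195, 272 and 254 with LPS and 317, 371 and 314 with LPS/IFNγ. These ranges of Cenpe overlapped with PBS in every condition, and its log2 fold change was 0.23, -0.12 and 0.36 (adjusted p = 0.401, 0.455 and 0.171).

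Tpx2, the activator of Aurora A that nucleates spindle microtubules, rose in all 3 inflammatory conditions. It had 497, 477 and 327 with PBS, 429, 483 and 452 with frHMGB1, 1329, 1148 and 1258 with dsHMGB1, 3330.0, 3168 and 3225 with LPS and 3605, 3826 and 3663 with LPS/IFNγ. The 3 inflammatory conditions did not overlap with each other or with the controls. The difference of Tpx2 between LPS/IFNγ and LPS was 0.19 and not called (adjusted p = 0.305), and was called without PBS replicate 3 (adjusted p = 0.0304). Relative to PBS its values were 1.51 ± 0.14, 2.89 ± 0.14 and 3.08 ± 0.14 (adjusted p = 2.46e-06, 3.43e-09 and 1.62e-09). Per exon length, Tpx2 went from 6.32 ± 2.78 TPM in PBS to 35.8 ± 1.40 TPM in LPS/IFNγ.

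**Figure D4:**
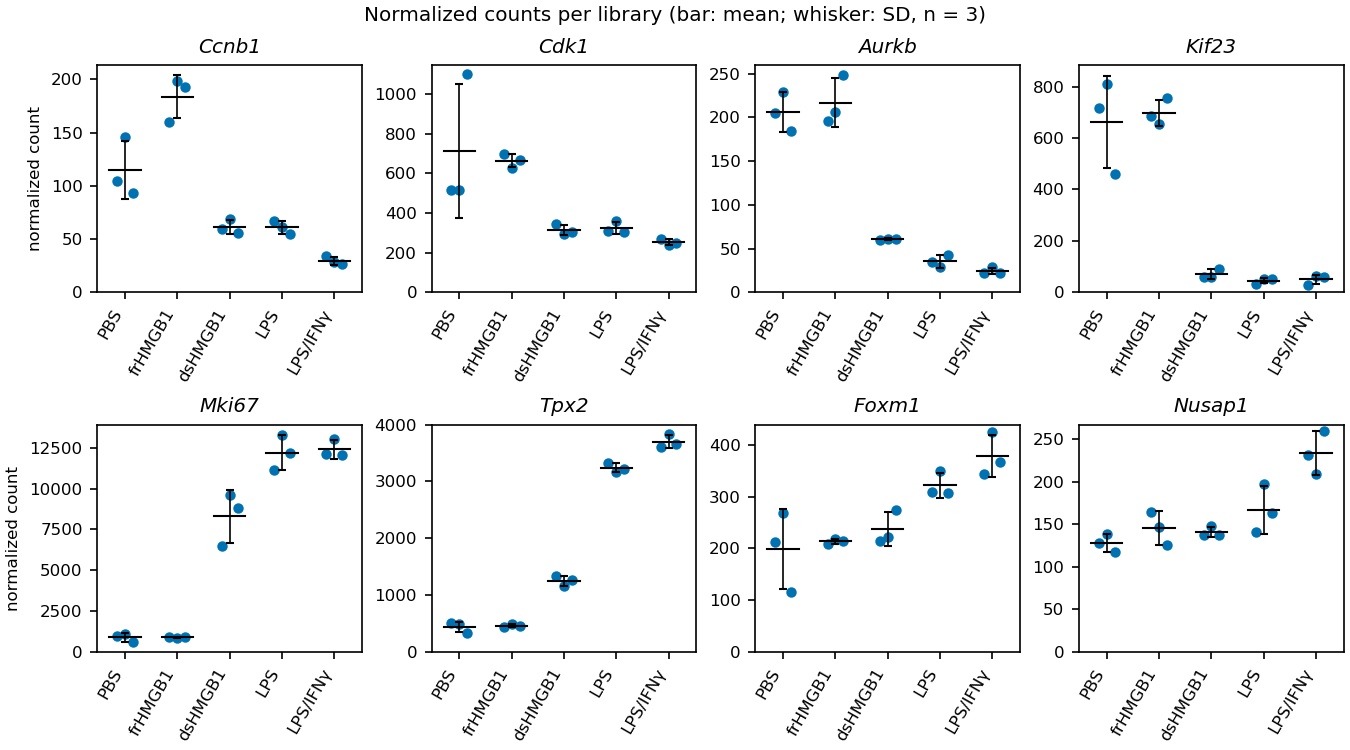
Normalized counts per library (y axes, from 0) of 8 genes in the 5 conditions (x axes), with points for libraries, a bar for the mean and a whisker for the SD (n = 3). Ccnb1, Cdk1, Aurkb and Kif23 are lower with the 3 inflammatory stimuli than with PBS, and Mki67 and Tpx2 are higher.

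NuSAP (Nusap1), which bundles spindle microtubules, had 128, 139 and 117 with PBS, 165, 147 and 125 with frHMGB1, 137, 147 and 138 with dsHMGB1, 141, 197 and 163 with LPS and 232, 209 and 260.5 with LPS/IFNγ. The LPS/IFNγ libraries of Nusap1 lay above all others. It rose with LPS/IFNγ (0.86 ± 0.16, adjusted p = 0.000673), and the values with dsHMGB1 and LPS were 0.13 and 0.37 (adjusted p = 0.568 and 0.12). Per exon length, the mean level of Nusap1 was 2.09 ± 0.715 TPM with PBS and 2.60 ± 0.253 TPM with LPS/IFNγ. It was 1.89 ± 0.160 TPM with dsHMGB1 and 1.69 ± 0.288 TPM with LPS, so that the direction with these differed between the scales. The spindle motor genes Kif11 and Kif2c fell in all 3 conditions, with log2 fold changes of -1.05, -1.22 and -1.77 for Kif11 and -1.34, -1.98 and -2.94 for Kif2c. That of Kif2c with dsHMGB1 was not called without dsHMGB1 replicate 3 (-1.11, adjusted p = 0.0885). Tacc3, which cross-links spindle fibres, fell as well (-1.05, -1.21 and -1.37), and 8.14% of its exon bases lie opposite those of Tmem129. Its values were nearer to 0 without PBS replicate 3 and still called (-0.55, -0.71 and -0.88). Hmmr, a spindle pole protein, fell with LPS (-1.29, adjusted p = 0.0192) and LPS/IFNγ (-1.87, adjusted p = 0.00296) and had -0.90 with dsHMGB1 (adjusted p = 0.0991). Hmmr was called with dsHMGB1 once PBS replicate 3 was left out (-1.22, adjusted p = 0.00418), and its call with LPS was lost without PBS replicate 2 (-0.83, adjusted p = 0.105) or LPS replicate 1 (-0.97, adjusted p = 0.0924).

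Of the cytokinesis genes, Kif23 fell the most. It encodes the motor of the centralspindlin complex, which marks the plane of division. Its normalized counts were 716, 810.4 and 462 with PBS, 684, 654 and 755 with frHMGB1, 58.7, 60.9 and 91.6 with dsHMGB1, 33.6, 50.8 and 52.9 with LPS and 29.7, 62.1 and 58.5 with LPS/IFNγ. The highest inflammatory library of Kif23 was far below the lowest control library. Its log2 fold change was -3.24 ± 0.29, -3.86 ± 0.31 and -3.72 ± 0.30 (adjusted p = 1.12e-06, 1.95e-07 and 2.17e-07). Ect2, a cytokinesis gene whose protein centralspindlin recruits, had 170.0, 183 and 56.2 with PBS, 166, 159 and 178 with frHMGB1, 66.7, 104 and 91.6 with dsHMGB1, 65.9, 62.8 and 55.9 with LPS and 44.5, 96.8 and 68.5 with LPS/IFNγ. PBS replicate 3 lay among the inflammatory libraries for Ect2. It fell with LPS (-1.16, adjusted p = 0.0147) and LPS/IFNγ (-0.97, adjusted p = 0.0353), and the value with dsHMGB1 was -0.65 (adjusted p = 0.157). Its call with dsHMGB1 was gained without PBS replicate 3 (-1.01, adjusted p = 0.000854). The calls of Ect2 with LPS (adjusted p of 0.0513 to 0.0597) and LPS/IFNγ (0.0819 to 0.131) were lost without PBS replicate 1 or 2, and also without LPS replicate 3 in the first case and LPS/IFNγ replicate 1 or 3 in the second. Anln, the scaffold of the contractile ring, fell with LPS (-1.17) and LPS/IFNγ (-1.70). With dsHMGB1 it was -0.80, and called at -1.17 without PBS replicate 3 (adjusted p = 8.6e-05), while the call with LPS was lost without PBS replicate 2 (-0.85, adjusted p = 0.0588). Kif20a, the motor that carries the passenger complex to the midzone, was called in none of the comparisons with PBS, with values of -0.71, -0.35 and -1.02. It was called lower in all 3 once PBS replicate 3 was left out, at -1.19, -0.85 and -1.51 (adjusted p = 1.97e-05, 0.000445 and 9.31e-07). Kif20a is also the gene with the lowest PBS replicate 3 relative to its partners, and 29.3% of its exon bases lie opposite exons of Cdc23.

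Both partners of the anaphase-promoting complex fell. Cdc20, its activator and the target of the checkpoint, had 145, 148 and 224 with PBS, 161, 175 and 191 with frHMGB1, 36.5, 45.5 and 53.0 with dsHMGB1, 47.8, 56.8 and 41.2 with LPS and 45.6, 28.4 and 24.7 with LPS/IFNγ. The inflammatory libraries of Cdc20 were all below the controls and overlapped with each other. The change over PBS was -1.92 ± 0.26, -1.81 ± 0.27 and -2.38 ± 0.27 (adjusted p = 2.46e-05, 2.43e-05 and 2.39e-06). Ube2c, its ubiquitin-conjugating enzyme, had 233, 226 and 602 with PBS, 248, 286 and 283 with frHMGB1, 165, 145 and 173 with dsHMGB1, 212, 146 and 204 with LPS and 169.7, 178 and 186 with LPS/IFNγ. Its log2 fold change was -1.13, -0.91 and -0.99, and 22.8% of its exon bases lie opposite those of Tnnc2. In PBS replicate 3 its count was far above the other PBS libraries. Leaving that library out, the values were -0.52, -0.29 and -0.38, and the call with LPS was lost (adjusted p = 0.0567), as it was without LPS replicate 2 (-0.75, adjusted p = 0.0696).

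At the same dose, the HMGB1 forms differed over these genes. In dsHMGB1 against frHMGB1, 21 of the 33 were lower and 2 higher, where 23.1% of all tested genes were lower and 27.7% higher. Of the 13025 protein-coding genes tested, 3483 were lower and 3125 higher. The median log2 fold change of the 33 was -0.94. Leaving out frHMGB1 replicate 2 left 13 lower, and leaving out PBS replicate 3, which enters only through the shared estimate of the spread, gave 28. Ccnb1 differed by -1.58 ± 0.21 (adjusted p = 2.89e-05), Aurkb by -1.84 ± 0.18 (2.31e-06) and Kif23 by -3.31 ± 0.29 (9.14e-07) on the log2 scale. The 2 genes higher with dsHMGB1 were Mki67 (3.25) and Tpx2 (1.45).

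Between the inflammatory conditions the differences were fewer and ran both ways. In dsHMGB1 against LPS, 4 genes were higher and 2 lower, where 15.8% and 10.6% of all tested genes were called. Of the 13025 protein-coding genes tested, 1601 were higher and 1645 lower. The median of the 33 was 0.15. Top2a (0.84, adjusted p = 0.00592), Aurkb (0.78, 0.00767), Cenpf (2.08, 0.031) and Ndc80 (1.26, 0.00189) were higher with dsHMGB1. The call of Cenpf, which rests on few LPS reads, was lost (adjusted p of 0.0544 to 0.129) without any 1 of the dsHMGB1 libraries or without LPS replicate 1 or 2, and its value ran from 1.52 to 4.12 over single libraries left out. Bub1b (-1.02, 0.0098) and Tpx2 (-1.38, 2.76e-05) were lower. Without PBS replicate 3, which enters this comparison only through the shared spread, 7 were higher and 4 lower.

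In dsHMGB1 against LPS/IFNγ, 8 genes were higher and 4 lower, where 16.5% and 16.7% of all tested genes were called, and the median was 0.32. The 8 were Ccnb1 (1.06), Bub1 (1.04), Plk1 (0.67), Aurkb (1.33), Cdca8 (1.27), Ndc80 (1.32), Kif11 (0.72) and Kif2c (1.60), with adjusted p from 0.00018 for Aurkb to 0.0425 for Plk1. The 4 were Ttk (-1.25), Aurka (-0.68), Tpx2 (-1.57) and Nusap1 (-0.73). The counts were 15 and 6 without PBS replicate 3. Leaving out single libraries, those of Bub1, Plk1, Kif11, Kif2c and Aurka were lost for at least 1 library, and 4 genes were called higher without dsHMGB1 replicate 2 and 5 without dsHMGB1 replicate 3, LPS/IFNγ replicate 1 or LPS/IFNγ replicate 3. In LPS/IFNγ against LPS, 3 genes were lower and 1 higher, where 9.36% and 16.3% of all tested genes were called. Of the 13025 protein-coding genes tested, 1465 were lower and 1634 higher. Ccnb1 (-1.05, adjusted p = 0.00521), Bub1b (-1.43, 0.001) and Cdca8 (-0.75, 0.0342) were lower with IFNγ, and Nusap1 (0.49, 0.0351) was higher. The counts were 7 lower and 5 higher without PBS replicate 3. The calls of Cdca8 and Nusap1 were lost, at adjusted p of 0.0692 to 0.107 and 0.0597 to 0.185, on leaving out some single libraries of these conditions or, for Nusap1, dsHMGB1 replicate 1. Ordered by mean normalized count, LPS/IFNγ was the lowest condition for 20 of the 33 genes and the highest for 7, while PBS was the highest for 11 and frHMGB1 for 15.

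**Figure D5:**
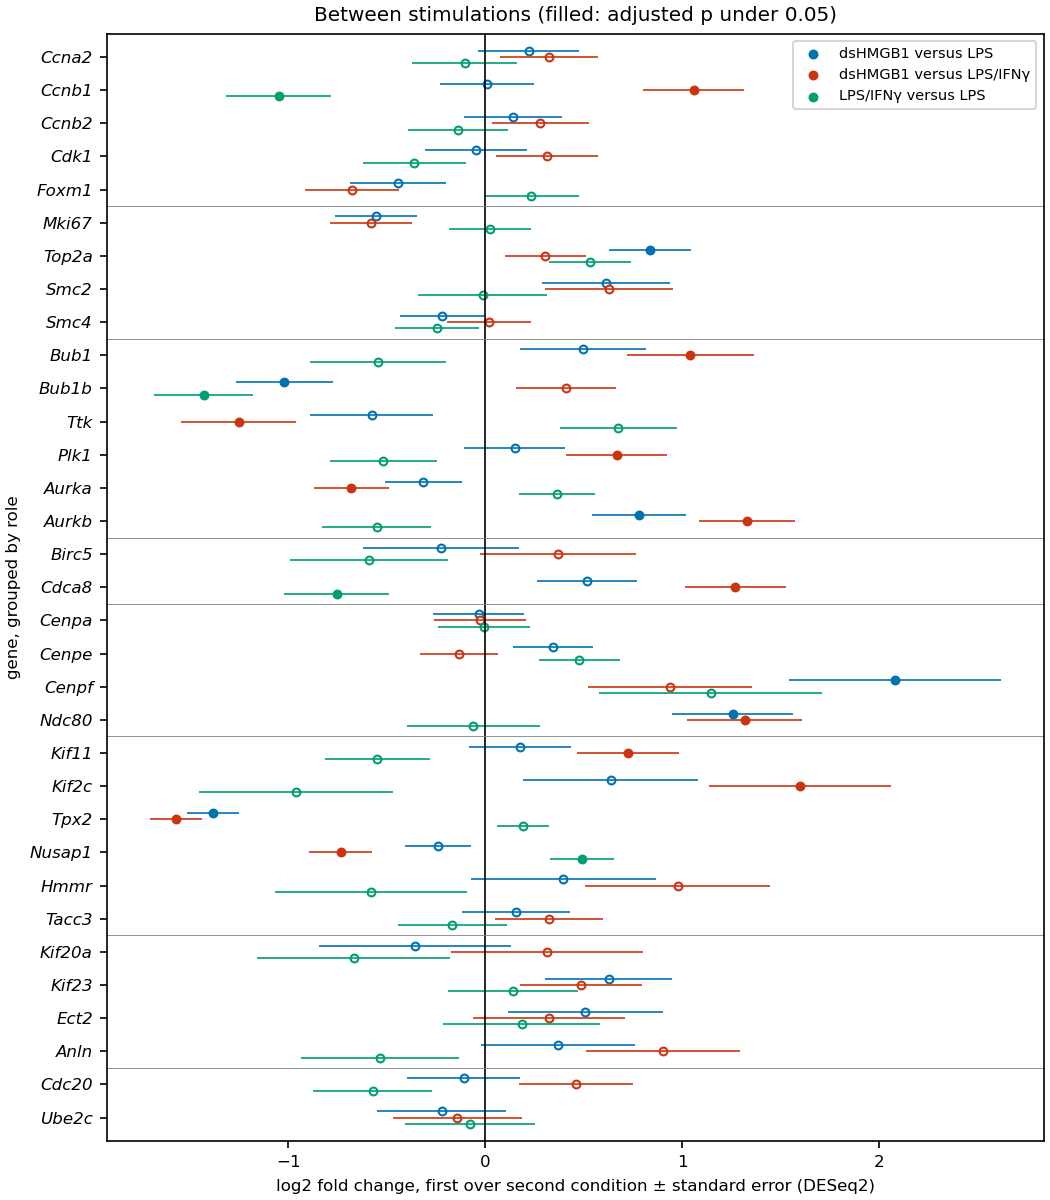
Log2 fold change with its standard error (x axis) of each gene (y axis) in the 3 comparisons between inflammatory conditions, first over second, filled where the adjusted p was under 0.05. Kif2c, Aurkb and Ndc80 lie to the right in dsHMGB1 against LPS/IFNγ, and Tpx2 and Ttk to the left.

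Other genes of the same pathway were followed from lists. Of 67 further mitosis genes, all tested, 32 fell and 7 rose with dsHMGB1 (24.2% and 23.3% of all tested genes). With LPS, 37 fell and 11 rose (36.2% and 26.7%), and with LPS/IFNγ, 42 fell and 9 rose (31.2% and 29%). The medians of the 67 were -0.81, -1.18 and -1.38. Cdc25b, the phosphatase that activates CDK1, fell from a mean of 923 ± 177 (SD over 3 libraries) with PBS to 24.2 ± 4.09 with LPS/IFNγ (log2 -5.25, adjusted p = 3.14e-10). Kif18a fell from 25.8 ± 24.7 to 1.22 ± 2.11 (log2 -4.35 ± 1.37 (SE), adjusted p = 0.0122). Its values rest on few reads, and it was not called with dsHMGB1 (-1.39, adjusted p = 0.241) or LPS (-2.40, adjusted p = 0.0744). The chromosome motor gene Kif4 rose to 599 ± 22.4 with LPS/IFNγ (3.09 on the log2 scale, adjusted p = 6.93e-08). The centromere gene Cenpi rose from 88.1 ± 42.1 to 634 ± 25.7 with LPS/IFNγ (2.83), and its value with LPS was 0.21 (adjusted p = 0.733).

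Of 30 DNA replication genes, 21 fell and 1 rose with dsHMGB1 (24.2% and 23.3% of all tested genes). With LPS, 22 fell and 4 rose (36.2% and 26.7%), and with LPS/IFNγ, 25 fell and 3 rose (31.2% and 29%). The medians of the 30 were -0.74, -1.0 and -1.13. Cdc45 (-2.26) and Gins1 (-2.27), subunits of the replicative helicase, fell the most with LPS/IFNγ. The sliding clamp gene Pcna (1.22, adjusted p = 4.49e-08) and the clamp loader gene Rfc3 (1.60, adjusted p = 1.72e-06) rose.

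Calls among the regulators of these programmes ran in both directions, as they did over all tested genes. Of 19 E2F, RB and DREAM complex genes, 18 were in the table and tested, of which 6 fell and 6 rose with dsHMGB1 (24.2% and 23.3% of all tested genes), 7 fell and 5 rose with LPS (36.2% and 26.7%), and 7 fell and 5 rose with LPS/IFNγ (31.2% and 29%). The repressor E2f8 rose from 217 ± 145 to 2753 ± 108 normalized counts with LPS/IFNγ (3.66, adjusted p = 1.12e-05) and had 2.70 with dsHMGB1 and 3.04 with LPS. Rbl1, which encodes the DREAM pocket protein p107, rose from 905 ± 437 to 6149 ± 87.4 (2.76, adjusted p = 4.67e-06), with 2.67 and 3.19 in the other conditions. The activator E2f2 fell from 451 ± 22.0 to 30.7 ± 5.24 (-3.88, adjusted p = 2.07e-09), with -4.47 with dsHMGB1 and -5.73 with LPS. Tfdp2, an E2F partner, fell with LPS/IFNγ (-2.44, adjusted p = 2.41e-06).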

How the data were processed

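RNA was sequenced from 15 libraries of BMDMs. According to the study's methods and the submitters' processing notes, the authors demultiplexed paired-end reads of stranded mRNA libraries with CASAVA, aligned them to GRCm38 with STAR and analysed them with DESeq2. The deposited values are raw counts of reads per Ensembl gene, with no normalization. For the counting program, the annotation and the strand setting, the sources used here give no name. Columns without a sample numbered 0.

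Symbols and exon lengths came from GENCODE M21. Genes were filtered with edgeR's filterByExpr (minimum count 10, total 15), which left 16919. All 15 libraries entered 1 fit in edgeR 4.0.16 (quasi-likelihood test, TMM factors, no covariate), with Benjamini-Hochberg adjustment over all tested genes and calls at an adjusted p under 0.05. Normalized counts, unshrunken log2 fold changes and standard errors came from DESeq2 1.42.0 in R 4.3.3. TPM used the union of exons as gene length. Code was tested on simulated data. No replicate pair was a copy of 1 library (chi-square per degree of freedom 4.17 to 787). Totals of 40934540 to 80925478 counts set the precision, and PCR reads are not independent molecules.

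The members and lists were chosen with earlier results of these data known. Values in every library are given for the genes with the largest and smallest change per role with dsHMGB1, for Ccnb1, Cdk1, Plk1, Aurkb, Foxm1 and Mki67, and for genes called against the majority. Of other lists, the 2 largest called changes per direction with LPS/IFNγ are named. Motifs were searched in RefSeq promoters. Alternatives were DESeq2's Wald test, other scalings and filters, protein-coding genes only, pairs of conditions fitted alone, the study's fold cut-off, a replicate block, and leaving out single libraries.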

Additional observations from a re-analysis of the deposited data

How the results depend on the processing

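The replicate numbers do not pair the libraries: same-numbered libraries deviated from their group means with a median r of -0.005 (1 of 30 pairs over 0.1), and other pairs with -0.003 (4 of 60). With a replicate block, the calls over PBS numbered 0 lower and 0 higher with frHMGB1, 20 and 2 with dsHMGB1, 23 and 3 with LPS and 24 and 4 with LPS/IFNγ. The blocked counts were 23 lower and 2 higher for dsHMGB1 against frHMGB1, 2 and 3 for dsHMGB1 against LPS, 5 and 8 for dsHMGB1 against LPS/IFNγ, and 2 and 1 for LPS/IFNγ against LPS.

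The medians of the 33 genes kept their sign under the alternatives run in each comparison but frHMGB1 against PBS (-0.10 to 0.14). At the study's cut-off of 2 on the log2 scale, 1 gene was lower and 1 higher with dsHMGB1, 4 lower and 2 higher with LPS, and 8 lower and 2 higher with LPS/IFNγ. At that cut-off, 1 was lower and 1 higher for dsHMGB1 against frHMGB1, 0 lower and 1 higher for dsHMGB1 against LPS, 0 and 0 for dsHMGB1 against LPS/IFNγ, and 0 and 0 for LPS/IFNγ against LPS. Fitting each pair of conditions alone gave 14 lower with LPS, 4 lower for dsHMGB1 against LPS, 14 higher for dsHMGB1 against LPS/IFNγ, and 8 lower and 6 higher for LPS/IFNγ against LPS. DESeq2's Wald test called 1 gene higher with frHMGB1. For LPS/IFNγ against LPS the number called higher was 2 with the Wald test, 0 without a filter, 2 with 1 CPM in 3 libraries, and 2 with protein-coding genes only. An alternative chosen after seeing the data, protein-coding genes only and without PBS replicate 3, gave 9 higher and 4 lower for dsHMGB1 against LPS, 15 higher for dsHMGB1 against LPS/IFNγ, and 6 higher and 5 lower for LPS/IFNγ against LPS.

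Leaving out each library in turn, the number called higher with frHMGB1 ran from 0 to 1, the number lower with dsHMGB1 from 17 to 27, with LPS from 20 to 25 and with LPS/IFNγ from 22 to 26. It ran from 13 (without frHMGB1 replicate 2) to 28 (without PBS replicate 3) lower for dsHMGB1 against frHMGB1. It ran from 3 to 7 higher and 2 to 4 lower for dsHMGB1 against LPS, from 4 to 15 higher for dsHMGB1 against LPS/IFNγ, and from 0 to 5 higher and 2 to 7 lower for LPS/IFNγ against LPS. Without PBS replicate 3, Cdk1 with frHMGB1 turned from -0.10 to 0.36, and its range over single libraries left out was -0.27 to 0.36. The cause of these changes was not tested. In the 200-base promoter window the CHR share was 78.6% against 11.2%. Low counts limit Cenpf, Kif2c and Hmmr, among others. In the LPS libraries, Aurkb had 27, 19 and 29 reads, Ndc80 had 16, 17 and 19, and Bub1 had 27, 36 and 20.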
